A study of Mus musculus with 24 samples.

Results

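The clade A serpins are secreted inhibitors of serine proteases made largely by the liver, and 10 of them were followed here through mouse livers exposed to the plasticiser di(2-ethylhexyl) phthalate (DEHP), to ethanol, or to both. The 10 genes are Serpina12, which encodes vaspin, the 5 Serpina1 copies Serpina1a to Serpina1e, Serpina3k, Serpina3m, Serpina3n and Serpina6. They were taken by symbol from 17537 genes listed in at least 1 library, in which 25 clade A serpin genes appeared. Serpina12 was chosen by its measured FPKM, which was almost lost with DEHP, and it passed the filter on low values only through the EtOH and CT libraries, so its levels and changes are a description and carry no test. Counts of genes that passed a test are given over the other 9 members.

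RNA sequencing covered 24 liver libraries from male C57BL/6 mice of 20 to 30 g, with 6 libraries in each of 4 gavage groups. The DE group received DEHP at 2500 mg per kg of body weight together with ethanol at 1 g per kg. The DEHP group received the same dose of DEHP alone, the EtOH group the same dose of ethanol alone, and the CT group 0.5% CMC. The labels describe 12 mice per group and do not say how they map to the 6 libraries, how long dosing lasted, or whether the first 3 groups also received CMC, so p-values measure only the spread between these libraries.

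A serpin traps its target protease by offering a reactive loop as bait and then changing shape, which inactivates both proteins. Serpina1 is alpha-1 antitrypsin, the main circulating inhibitor of neutrophil elastase, and what is a single gene in humans is a set of tandem copies in the mouse. Vaspin was described in rats as an adipokine of visceral fat that inhibits the protease kallikrein 7, and liver makes it too. Serpina3n is an acute phase protein that inhibits granzyme B and cathepsin G, and Serpina6 is transcortin, a serpin without inhibitory activity that carries glucocorticoids in blood. DEHP is known to act in rodent liver through a metabolite that activates the nuclear receptor PPAR alpha.

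Entries for 7 of the 10 members were found among RefSeq promoters of GRCm38.p6. The Serpina1 copies are shown over 100 bases because they carry nearly the same sequence there while their transcripts moved by very different amounts. Each stretch lies on the minus strand of chromosome 12 and is written 5′ to 3′, with a box that all 5 copies share in capitals.
Serpina1a, chr12:103863625-103863724: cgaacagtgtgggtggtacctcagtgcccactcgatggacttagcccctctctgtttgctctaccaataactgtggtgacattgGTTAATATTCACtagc
Serpina1b, chr12:103738200-103738299: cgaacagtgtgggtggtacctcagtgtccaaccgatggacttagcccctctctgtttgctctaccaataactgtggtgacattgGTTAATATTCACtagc
Serpina1c, chr12:103904962-103905061: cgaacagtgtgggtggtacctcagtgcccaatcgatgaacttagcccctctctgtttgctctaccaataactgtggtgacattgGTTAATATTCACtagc
Serpina1d, chr12:103773634-103773733: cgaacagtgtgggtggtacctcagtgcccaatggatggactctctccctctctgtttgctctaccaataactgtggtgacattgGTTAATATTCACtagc
Serpina1e, chr12:103956960-103957059: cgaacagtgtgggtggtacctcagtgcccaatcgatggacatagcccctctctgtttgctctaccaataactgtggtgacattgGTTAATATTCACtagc

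Any 2 of these stretches were 93.0% to 98.0% identical, and Serpina1e differed from Serpina1a and from Serpina1c at 2 bases each. The stretch ended 0 to 11 bases before the annotated start in Serpina1a to Serpina1d and 62 bases before it in Serpina1e, whose annotated transcript begins further downstream. The box GTTAATATTCAC, searched on both strands, occurred in 5 of 32851 RefSeq promoters (0.0152%), which were those of the 5 copies.

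For Serpina12, the gene with the largest difference, the 250 bases before its annotated start are shown, on the minus strand. The capitals mark a near-direct repeat of the kind called DR1, to which HNF4A and PPAR-RXR pairs can bind, and which began 209 bases upstream of the start.
Serpina12, chr12:104044444-104044693: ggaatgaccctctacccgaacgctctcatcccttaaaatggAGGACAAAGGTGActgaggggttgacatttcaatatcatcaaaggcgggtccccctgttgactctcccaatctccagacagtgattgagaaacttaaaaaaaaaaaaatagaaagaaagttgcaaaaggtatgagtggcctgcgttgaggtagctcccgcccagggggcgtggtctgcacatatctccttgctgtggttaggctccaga

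The form AGGNCAAAGGTNA was fitted to this sequence after it had been read. It frees the bases that differ from the canonical repeat and fixes the spacer base as A. It occurred in 23 of the 32851 promoters (0.07%), and the match in Serpina12 was given in advance. This share does not measure how common near-repeats of this kind are. The canonical form AGGTCANAGGTCA occurred in 13 (0.0396%) and in no member. A match is a likeness of letters and not a measured binding site.

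The depth was 7324793 to 8016662 expected counts per library, with 13958 to 15114 genes listed in each. Levels are in FPKM, fragments scaled to transcript length and to the assigned reads of the library, so that levels of different genes can be set side by side. A change is the log2 ratio estimated by edgeR's quasi-likelihood test on the expected counts, and it was called where the Benjamini-Hochberg adjusted p over 10697 tested genes was below 0.05. The summed level of 5 hepatocyte genes was 37800 to 42200 FPKM in DE, 36300 to 44000 in DEHP, 50300 to 63200 in EtOH and 44400 to 62400 in CT libraries. Alb was the largest part, with means of 22690 FPKM in DE, 23470 in DEHP, 31660 in EtOH and 35940 in CT. Cyp2e1, also in the sum, went the other way, with means of 3787, 4036, 3619 and 2837 FPKM in the same order. In DEHP against CT 3 of the 5 genes were called lower and 1 higher, beside 11.6% and 14.4% of all tested genes. In DE against EtOH 4 were called lower and none higher, beside 12.7% and 15.1%. Skeletal muscle transcripts stood out in CT 1 and DE 6, with 6390 and 4740 FPKM summed over 8 genes against at most 4.19 elsewhere. Exocrine pancreas transcripts stood out in DEHP 6, with 555 FPKM over 8 genes against at most 3.19 elsewhere. Without these 3 libraries, the count of called members was 6 of 9 in DEHP against CT, in DE against CT and in DE against EtOH, as with them.

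Vaspin mRNA was almost absent wherever DEHP had been given. Serpina12 had 0.08, 0.04, 0.04, 0.77, 0.04 and 0 FPKM in the 6 DE libraries and 0.08, 0.12, 0.16, 0.15, 0.93 and 0 FPKM in the 6 DEHP libraries. It had 14.68, 9.38, 17.71, 16.32, 14.39 and 12.25 FPKM in the EtOH libraries and 15.85, 14.02, 11.17, 11.97, 7.82 and 8.41 FPKM in the CT libraries. No library with DEHP came near any library without it, and DE 4 and DEHP 5 were the highest of their groups.

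In reads, Serpina12 had 0 to 21 expected counts per DE library and 0 to 23 per DEHP library, against 249 to 471 per EtOH library and 203 to 404 per CT library. DE 6 and DEHP 6 had no count, which at a floor of 3 counts allows up to 0.12 and 0.11 FPKM. The mean was 0.162 ± 0.299 FPKM in DE and 0.24 ± 0.343 in DEHP, against 14.1 ± 2.97 in EtOH and 11.5 ± 3.12 in CT (SD, n = 6 each). The estimated log2 change was -5.61 ± 0.47 (SE) in DEHP against CT, and -6.80 without DEHP 5. In DE against CT it was -6.09 ± 0.49, and -8.09 without DE 4.

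In DE against EtOH the estimated log2 change was -6.46 ± 0.49, or 87.9-fold, again a description of a gene chosen for its loss with DEHP. All 6 DE libraries were below all 6 EtOH libraries, where the ranges of 15.7% of all tested genes did not overlap. In bulk liver, fewer cells making a transcript and less transcript per cell cannot be told apart.

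Vaspin is also made by fat cells, and the part of fat cells in its level was not tested. The summed level of 7 adipocyte genes was 28.8 to 131 FPKM in DE and 18.7 to 156 in DEHP libraries, against 4.87 to 7.95 in EtOH and 8.81 to 69.2 in CT libraries. Fabp4, the fatty acid carrier, and Cidec, a lipid droplet protein, were above 0 in every library, while Adipoq, which encodes adiponectin, was at 0 in most and reached 6.86 FPKM in DE 6 and 4.75 in DEHP 6. Fabp4 was higher in DEHP than in CT (1.73 ± 0.50, edgeR adjusted p = 0.0119) and in DE than in EtOH (2.75 ± 0.57, edgeR adjusted p = 0.000573). In DEHP 1, whose adipocyte sum was the highest of all libraries, Fabp4 made up 145 of the 156 FPKM and Adipoq was at 0, and the same library also had the highest sums of Kupffer cell and neutrophil markers.

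**Figure D1:**
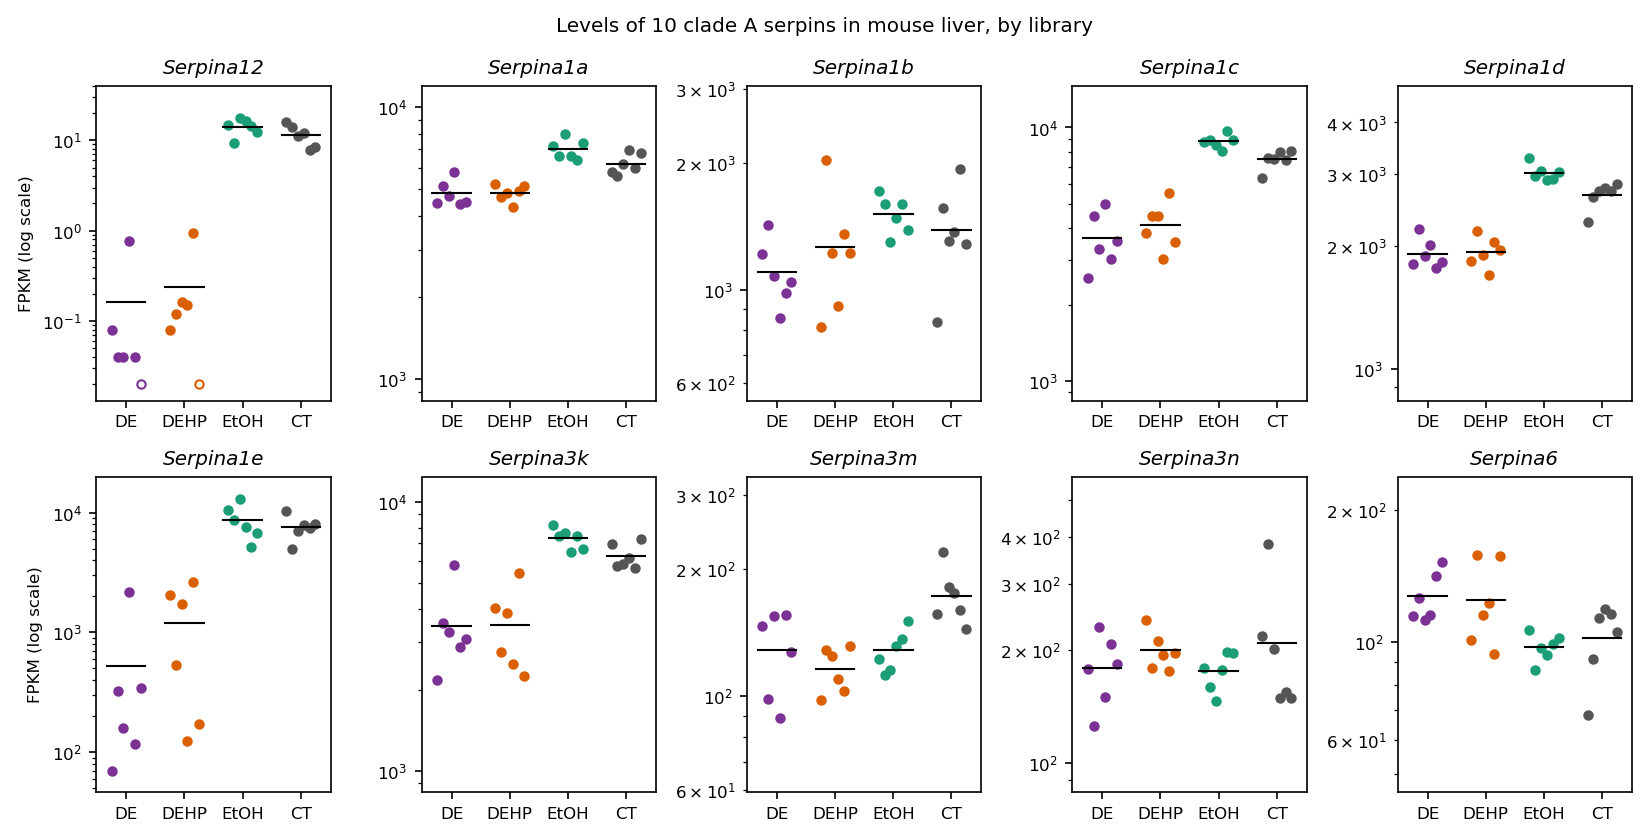
FPKM on a log axis for each of the 10 serpins in 24 libraries. Filled points are libraries, horizontal lines are group means over 6 libraries, and the open points in the Serpina12 panel mark the libraries at 0, drawn at 0.02. Serpina12 lies at 0.93 FPKM or less in the DE and DEHP libraries, against 7.82 FPKM or more in the EtOH and CT libraries.

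The alpha-1 antitrypsin copies had estimated changes of different size, of which that of Serpina1e was the largest. Serpina1e had 69.3, 326, 160, 2158, 117 and 340 FPKM in the DE libraries and 2047, 531, 1733, 125, 2640 and 174 FPKM in the DEHP libraries. It had 10593, 8612, 13097, 7607, 5187 and 6803 FPKM in the EtOH libraries and 10320, 5019, 7049, 7892, 7502 and 7999 FPKM in the CT libraries. Every library with DEHP was below every library without it, and within the DE and DEHP groups the highest library exceeded the lowest 31.2-fold and 21.1-fold, against 2.52-fold in EtOH and 2.06-fold in CT.

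Serpina1e was 6.37-fold lower in DEHP than in CT (log2 change -2.67 ± 0.71, edgeR adjusted p = 0.00696). It was 17.0-fold lower in DE than in EtOH (-4.09 ± 0.76, edgeR adjusted p = 0.000184) and 14.3-fold lower in DE than in CT (-3.83 ± 0.75, edgeR adjusted p = 0.000279). Without DE 4 the last 2 changes were -5.52 and -5.26.

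Serpina1c fell and stayed abundant. Its lowest, median and highest levels were 2546, 3428 and 5005 FPKM in DE, 3022, 4136 and 5503 in DEHP, 8067, 8823 and 9716 in EtOH, and 6316, 7537 and 8100 in CT. The groups with DEHP did not overlap those without it. Its log2 change was -0.87 ± 0.15 in DEHP against CT (edgeR adjusted p = 8.85e-05) and -1.35 ± 0.15 in DE against EtOH (edgeR adjusted p = 1.91e-07).

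Serpina1d fell less. It had 1758, 1852 and 2190 FPKM (lowest, median and highest) in DE and 1697, 1923 and 2167 in DEHP, against 2886, 2996 and 3275 in EtOH and 2278, 2721 and 2833 in CT. Again no library with DEHP reached one without it. The log2 change was -0.48 ± 0.09 in DEHP against CT (edgeR adjusted p = 0.000256) and -0.73 ± 0.09 in DE against EtOH (edgeR adjusted p = 6.8e-07).

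Serpina1a was the most abundant copy by group mean in DE and in DEHP, although in DEHP 5 Serpina1c exceeded it, at 5503 against 4934 FPKM. Serpina1a had 4424, 4598 and 5791 FPKM (lowest, median and highest) in DE and 4289, 4892 and 5219 in DEHP, against 6394, 6913 and 7977 in EtOH and 5608, 6061 and 6967 in CT. The DEHP and CT libraries did not overlap, and neither did the DE and EtOH libraries. The log2 change was -0.38 ± 0.10 in DEHP against CT (edgeR adjusted p = 0.0059) and -0.64 ± 0.10 in DE against EtOH (edgeR adjusted p = 2.66e-05), although after quantile normalisation the estimates turned to 0.05 and 0.24. Serpina1a is thus the one copy with a called change whose direction depended on the scaling.

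Serpina1b moved least, with 856, 1060 and 1423 FPKM (lowest, median and highest) in DE, 815, 1224 and 2035 in DEHP, 1300, 1539 and 1716 in EtOH and 836, 1341 and 1938 in CT. All 4 groups overlapped. It was not called in DEHP against CT (-0.15 ± 0.19, edgeR adjusted p = 0.594). In DE against EtOH it was called lower (-0.53 ± 0.19, edgeR adjusted p = 0.0357), a call lost in 7 of 24 refits that each left out 1 library. The call was also lost with library size only (edgeR adjusted p = 0.0585). In limma on log2(FPKM + 1), log2(FPKM + 0.1) and log2(TPM + 1) it was lost too (limma adjusted p = 0.053, 0.0525 and 0.0809).

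The make-up of the alpha-1 antitrypsin pool differed with the group. Serpina1e made up 3.71% ± 4.92 of the summed Serpina1 FPKM in DE and 8.27% ± 6.85 in DEHP, against 29.2% ± 6.51 in EtOH and 29.9% ± 5.82 in CT (SD, n = 6 each). The share of Serpina1a was 40.6% ± 2.99 in DE and 36.9% ± 5.17 in DEHP, against 24.3% ± 1.52 in EtOH and 24.5% ± 1.23 in CT. Serpina1c kept a mean share between 29.6% and 30.8% in every group.

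The 5 copies summed to 12010 ± 2229 FPKM in DE and 13380 ± 2173 in DEHP, against 29030 ± 3133 in EtOH and 25370 ± 1716 in CT (SD, n = 6 each). The log2 change of the summed counts was -0.91 ± 0.13 in DEHP against CT, -1.32 ± 0.13 in DE against EtOH and -1.07 ± 0.13 in DE against CT. The sum does not depend on how reads were divided between copies, whereas the single copies do. Their transcripts were 89.5% to 98.3% identical, with Serpina1a and Serpina1c the closest pair. Of all 100-base windows, 42.0% in Serpina1a and 41.5% in Serpina1c were found in no GENCODE transcript of another clade A serpin, against 81.8% in Serpina1e and 100% in Serpina12. Fractional expected counts, a sign of divided reads, occurred in 23 or 24 libraries for each copy and in none for Serpina12, Serpina3n and Serpina6. They also occurred in 18 libraries each for Serpina3k and Serpina3m, so the values of these members may depend on the division of reads too.

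**Figure D2:**
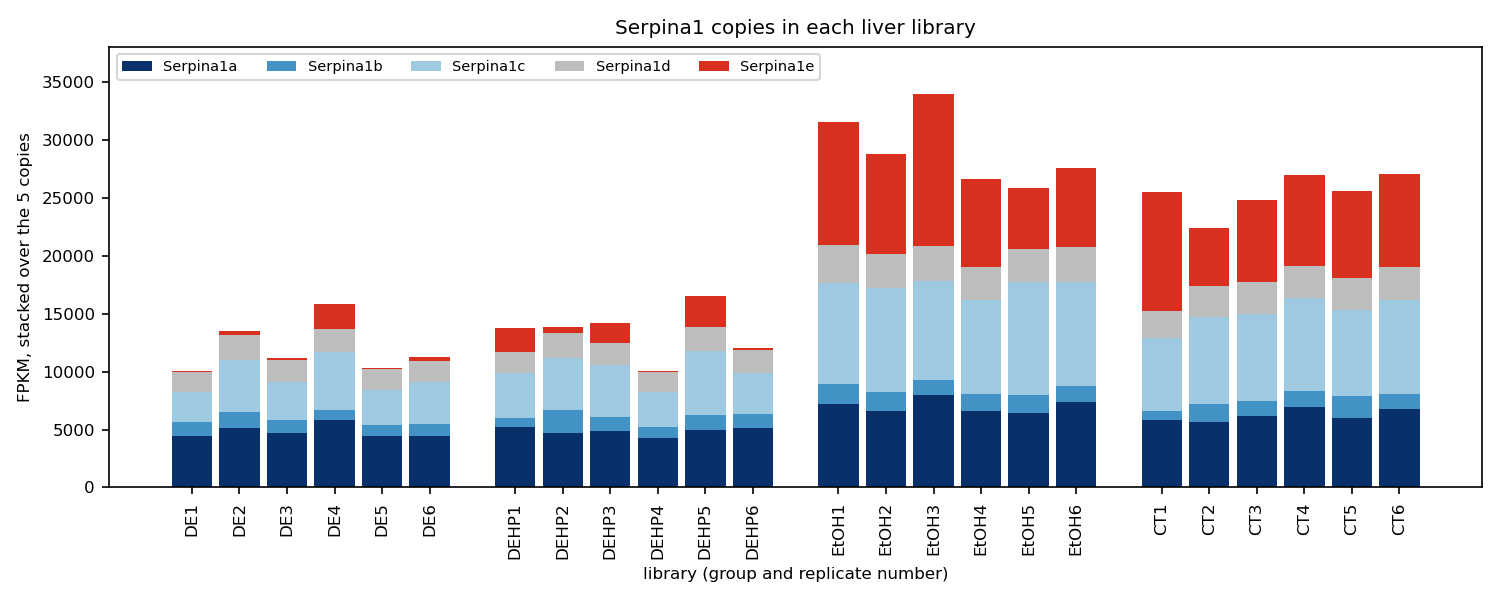
Stacked FPKM of the 5 Serpina1 copies in each library. The red segment, Serpina1e, is thin in the DE and DEHP libraries and averages 29.2% of the bar in EtOH and 29.9% in CT, and the whole bar averages 12010 FPKM in DE against 29030 in EtOH.

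Of the Serpina3 members, Serpina3k fell with DEHP while Serpina3n was not called in any comparison. Serpina3k, an abundant plasma serpin also known as contrapsin, had 2171, 3190 and 5832 FPKM (lowest, median and highest) in DE and 2243, 3321 and 5430 in DEHP, against 6509, 7465 and 8185 in EtOH and 5649, 6023 and 7239 in CT. Its log2 change was -0.87 ± 0.20 in DEHP against CT (edgeR adjusted p = 0.00213) and -1.15 ± 0.20 in DE against EtOH (edgeR adjusted p = 9.38e-05), the second no longer called after quantile normalisation (limma adjusted p = 0.0885). DE 4 reached the range of the CT libraries and was the only DE library to do so.

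Serpina3m was lower in all 3 exposed groups than in CT. It had 88.9, 137 and 156 FPKM (lowest, median and highest) in DE, 97.9, 117 and 131 in DEHP and 112, 128 and 151 in EtOH, against 145, 168 and 220 in CT. The log2 change was -0.44 ± 0.13 in DE (edgeR adjusted p = 0.00857), -0.60 ± 0.13 in DEHP (edgeR adjusted p = 0.0011) and -0.37 ± 0.13 in EtOH (edgeR adjusted p = 0.0324), each against the same CT libraries. Between DE and EtOH it was not called (-0.07 ± 0.13, edgeR adjusted p = 0.718). The call in EtOH against CT was lost without CT 2, CT 4, EtOH 1, EtOH 2 or EtOH 3.

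Serpina3n had 125, 181 and 230 FPKM (lowest, median and highest) in DE and 176, 195 and 240 in DEHP, against 146, 178 and 197 in EtOH and 148, 178 and 383 in CT. All groups overlapped, and the log2 change was -0.09 ± 0.18 in DEHP against CT (edgeR adjusted p = 0.754) and -0.05 ± 0.18 in DE against EtOH (edgeR adjusted p = 0.872). The 95% interval of the second ran from -0.40 to 0.30. The CT libraries differed among themselves, with 218, 383 and 201 FPKM in CT 1 to CT 3 and 149, 155 and 148 in CT 4 to CT 6. All DEHP libraries lay above CT 4 to CT 6. In refits that each left out 1 library, the estimate in DEHP against CT ran from -0.17 to 0.18, so its direction was not settled. The part of this difference between CT libraries was not tested.

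Serpina6, the transcortin gene, was the member whose estimates pointed upward. It had 112, 121 and 152 FPKM (lowest, median and highest) in DE and 93.7, 119 and 158 in DEHP, against 86.5, 97.8 and 106 in EtOH and 68.2, 109 and 119 in CT. The DE and EtOH libraries did not overlap, but the log2 change of 0.30 ± 0.13 was not called (edgeR adjusted p = 0.0872). It was called higher with library size only, without CT 1 and with only the groups compared (edgeR adjusted p = 0.0234, 0.0476 and 0.00891). In limma on log2(FPKM + 1), log2(FPKM + 0.1) and log2(TPM + 1) it was called higher too (limma adjusted p = 0.0329, 0.033 and 0.0174), and in no other setting. In DEHP against CT it was 0.27 ± 0.13 (edgeR adjusted p = 0.133).

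Counted together, 6 of the 9 members were lower in DEHP than in CT and none was higher, where 26.0% of all tested genes were called, 11.6% lower and 14.4% higher. The same count was 6 lower and none higher in DE against EtOH, where 27.8% of all genes were called, 12.7% lower and 15.1% higher. In DE against CT it was again 6 lower and none higher, beside 36.8% of all genes called, 17.4% lower and 19.3% higher, with the CT and DE libraries shared with the other contrasts. The median log2 change of the 9 members was -0.48 in DEHP against CT and -0.64 in DE against EtOH, where the medians of all tested genes were -0.02 and 0.02. Serpina1a, Serpina1c, Serpina1d, Serpina1e and Serpina3k were called lower in both, Serpina3m in DEHP against CT, and Serpina1b in DE against EtOH. The 9 members include the 5 near-identical Serpina1 copies, which may share reads, so they do not count as independent genes beside the shares of all genes. The ranges of 6 of the 9 members did not overlap in DEHP against CT and of 6 in DE against EtOH, beside 9.96% and 15.7% of all genes. In DE against EtOH these are not the same 6 that were called lower. They include Serpina6, which was higher in DE and not called, and leave out Serpina1b, which was called lower but overlapped. In DE against CT the ranges of 3 did not overlap, beside 16.1% of all genes.

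**Figure D3:**
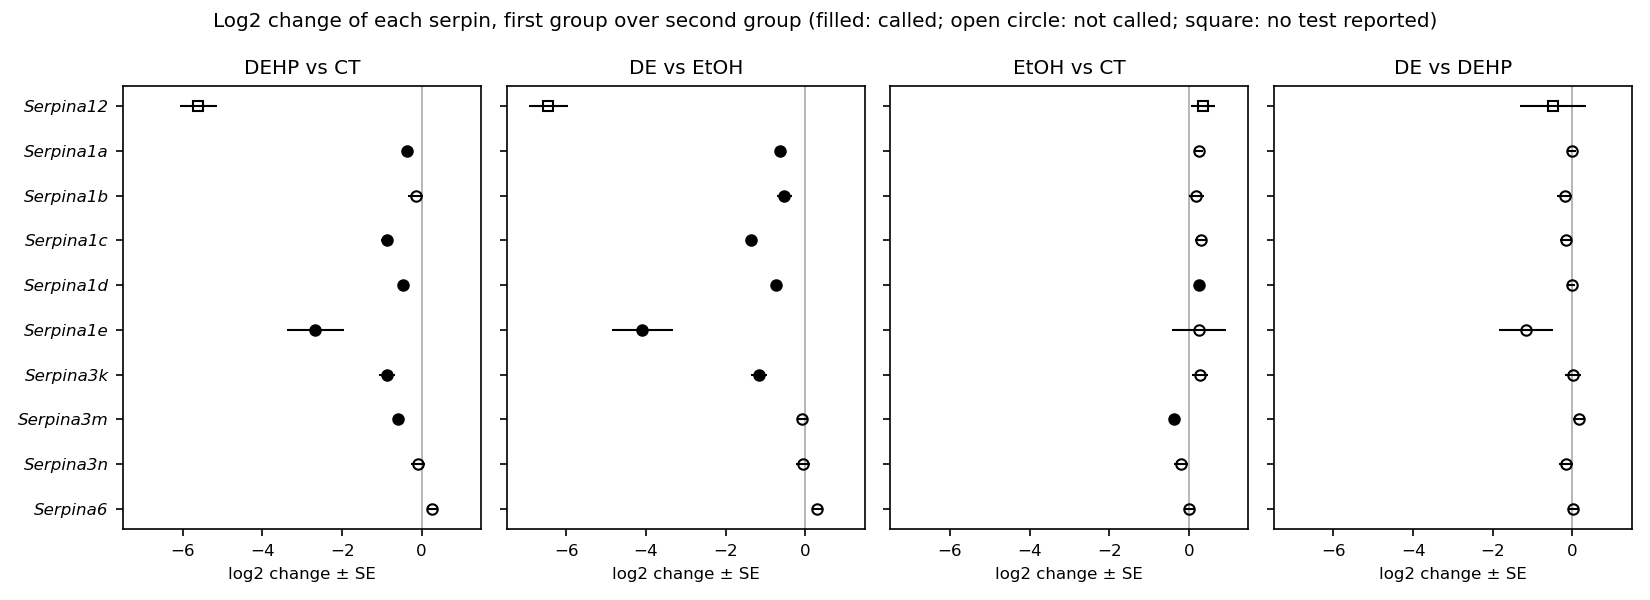
Log2 change with its standard error (x axis) for each serpin (y axis) in DEHP against CT, DE against EtOH, EtOH against CT and DE against DEHP. Filled circles were called at an edgeR adjusted p below 0.05, open circles were not, and squares are given as a description with no test. Serpina12 and Serpina1e lie far to the left in both contrasts that add DEHP, at -5.61 and -2.67 in DEHP against CT, while Serpina1a, whose change is -0.38 there, turned to 0.05 after quantile normalisation.

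In EtOH against CT 1 of the 9 members was called higher and 1 lower, beside 28.8% of all tested genes called, 14.2% higher and 14.5% lower, so the members' share was no larger than that of all genes. The called members were Serpina1d, higher (0.25 ± 0.09, edgeR adjusted p = 0.0359), and Serpina3m, lower. The ranges of 1 of the 9 did not overlap, beside 10.7% of all genes. The call for Serpina1d was lost in 11 of 24 refits that each left out 1 library, among them the refit without CT 1 (edgeR adjusted p = 0.0899), and in 10 of 13 other settings, among them the fit without the 3 libraries with muscle or pancreas transcripts (edgeR adjusted p = 0.111). The summed Serpina1 copies changed by 0.25 ± 0.13, and Serpina12 by 0.36 ± 0.30, with overlapping ranges in both cases. With no library left out, DESeq2 called 3 members and 4 had an unadjusted p below 0.05.

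Adding ethanol to DEHP gave no called difference in any member. In DE against DEHP 0 of the 9 members passed edgeR's test, 0 had an unadjusted p below 0.05 and DESeq2 called 0, beside 0.122% of all tested genes called by edgeR, 0.0467% higher and 0.0748% lower. The ranges of 0 of the 9 did not overlap, beside 0.664% of all genes. Serpina1e had the largest estimate of the 9, -1.16 ± 0.68 (edgeR adjusted p = 0.535), with a 95% interval from -2.49 to 0.16. For Serpina1a, Serpina1d and Serpina3k the intervals were narrower, from -0.20 to 0.19, from -0.18 to 0.17 and from -0.37 to 0.40. Serpina12 changed by -0.48 ± 0.83, which became 0.69 without DEHP 5 and -2.48 without DE 4.

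The interaction, the change from DEHP to DE minus the change from CT to EtOH, was called by edgeR in 0 of the 9 members, beside 6.41% of all tested genes, 3.32% positive and 3.09% negative. At an unadjusted p below 0.05 there were 2, and DESeq2 called 1. Serpina3m had an interaction of 0.53 ± 0.18 (edgeR adjusted p = 0.0735), called by DESeq2 (adjusted p = 0.0479). Serpina1e had -1.42 ± 0.95 (edgeR adjusted p = 0.378), which became -2.85 without DE 4 (edgeR adjusted p = 0.025).

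DE 4 and DEHP 5 were the highest libraries of their groups for 4 of the 10 members, Serpina12, Serpina1c, Serpina1e and Serpina3k, and DE 4 also for Serpina1a. For other members they were the lowest, DE 4 for Serpina1b (856 FPKM) and Serpina3m (88.9 FPKM), and DEHP 5 for Serpina3n (176 FPKM) and Serpina6 (93.7 FPKM). Both libraries were the lowest of their groups for Cyp4a14, a fatty acid hydroxylase and classical PPAR alpha target picked after its values were seen. Cyp4a14 had 3143 FPKM in DE 4 and 3297 to 5117 in the other DE libraries, and 2130 FPKM in DEHP 5 and 2884 to 3888 in the other DEHP libraries. Both stayed far above the highest CT library, at 239 FPKM. Ehhadh, another PPAR alpha target whose values had been seen, was lowest in DEHP 5 of its group (1302 FPKM), but in the DE group DE 6 (1757 FPKM) was below DE 4 (1906 FPKM).

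**Figure D4:**
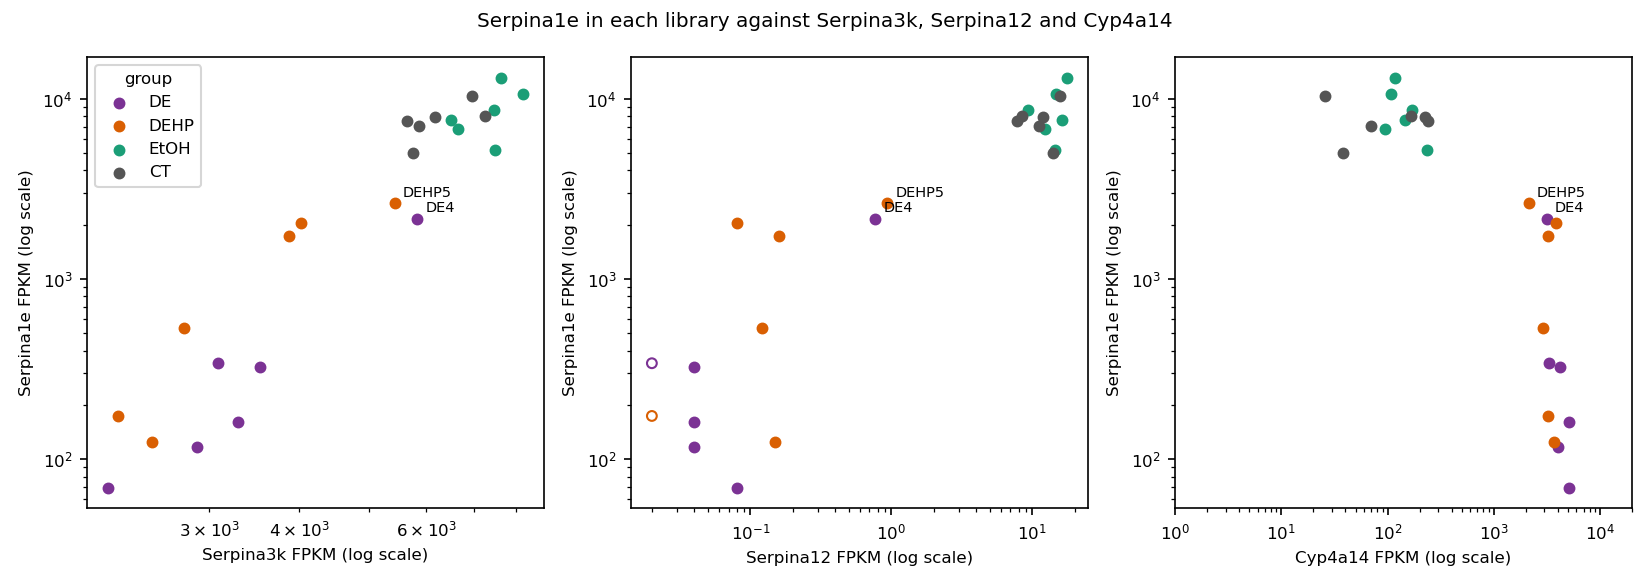
Serpina1e FPKM (y axis, log scale) against Serpina3k, Serpina12 and Cyp4a14 FPKM (x axes, log scale), with 1 point per library coloured by group. Open points mark Serpina12 at 0, drawn at 0.02. DE 4 and DEHP 5 are the libraries with DEHP whose Serpina1e lies nearest to the EtOH and CT libraries, at 2158 and 2640 FPKM.

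All 10 members lie in 1 gene cluster. The RefSeq table of GRCm38.p6 places 28 clade A serpin genes on chromosome 12 between 103616675 and 104414334, a span of 798 kb. Distances below run from the middle of a gene to the annotated start of Serpina12, toward lower coordinates for negative values. Serpina9, centred at -39.3 kb, was at 0 in 5 of 6 DE libraries and in 4 of 6 DEHP libraries, against 0.85 to 2.29 FPKM in EtOH and 0.37 to 4.31 FPKM in CT. It passed the filter only through EtOH and CT libraries, so its estimated log2 change of -4.33 ± 0.99 in DE against EtOH and -2.51 ± 0.80 in DEHP against CT is a description.

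Serpina4-ps1, a transcribed pseudogene centred at 38.0 kb and picked after its values were seen, had 0.33, 0.66 and 10.4 FPKM (lowest, median and highest) in DE and 0.11, 1.47 and 23.9 in DEHP, against 11.9, 14.6 and 53.9 in EtOH and 12.7, 24.4 and 97.2 in CT. Its highest levels with DEHP were again in DE 4 and DEHP 5. The estimated log2 change, given as a description, was -3.34 ± 0.87 in DE against EtOH and -3.14 ± 0.80 in DEHP against CT. Serpina1e is centred at -92.5 kb. Serpina12, Serpina9 and Serpina4-ps1 were singled out by their values or by the filter, so nothing is read from their positions.

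Serpina11, centred at -59.3 kb between Serpina1e and Serpina9, fell by 1.12 ± 0.14 on the log2 scale in DE against EtOH (edgeR adjusted p = 9.14e-07) and by 0.69 ± 0.14 in DEHP against CT (edgeR adjusted p = 0.000603). Serpina3c, at 106.0 kb, fell by 1.09 ± 0.19 and 0.91 ± 0.19 (edgeR adjusted p = 0.000106 and 0.000964). At the ends of the cluster, Serpina10 at -420.4 kb, an inhibitor of coagulation factor Xa, had -0.35 ± 0.15 in DE against EtOH (edgeR adjusted p = 0.0806), and Serpina3n at 366.0 kb had -0.05 ± 0.18. Serpina3k, at 297.7 kb, was lower in DE against EtOH. Serpina3f and Serpina3g, between Serpina3k and Serpina3c, had 0.89 ± 0.44 and 0.42 ± 0.30, neither called. Serpina7, which encodes thyroxine-binding globulin and lies on the X chromosome, was higher in DE than in EtOH (0.85 ± 0.26, edgeR adjusted p = 0.0166) and not called in DEHP against CT (0.22 ± 0.26, edgeR adjusted p = 0.576).

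**Figure D5:**
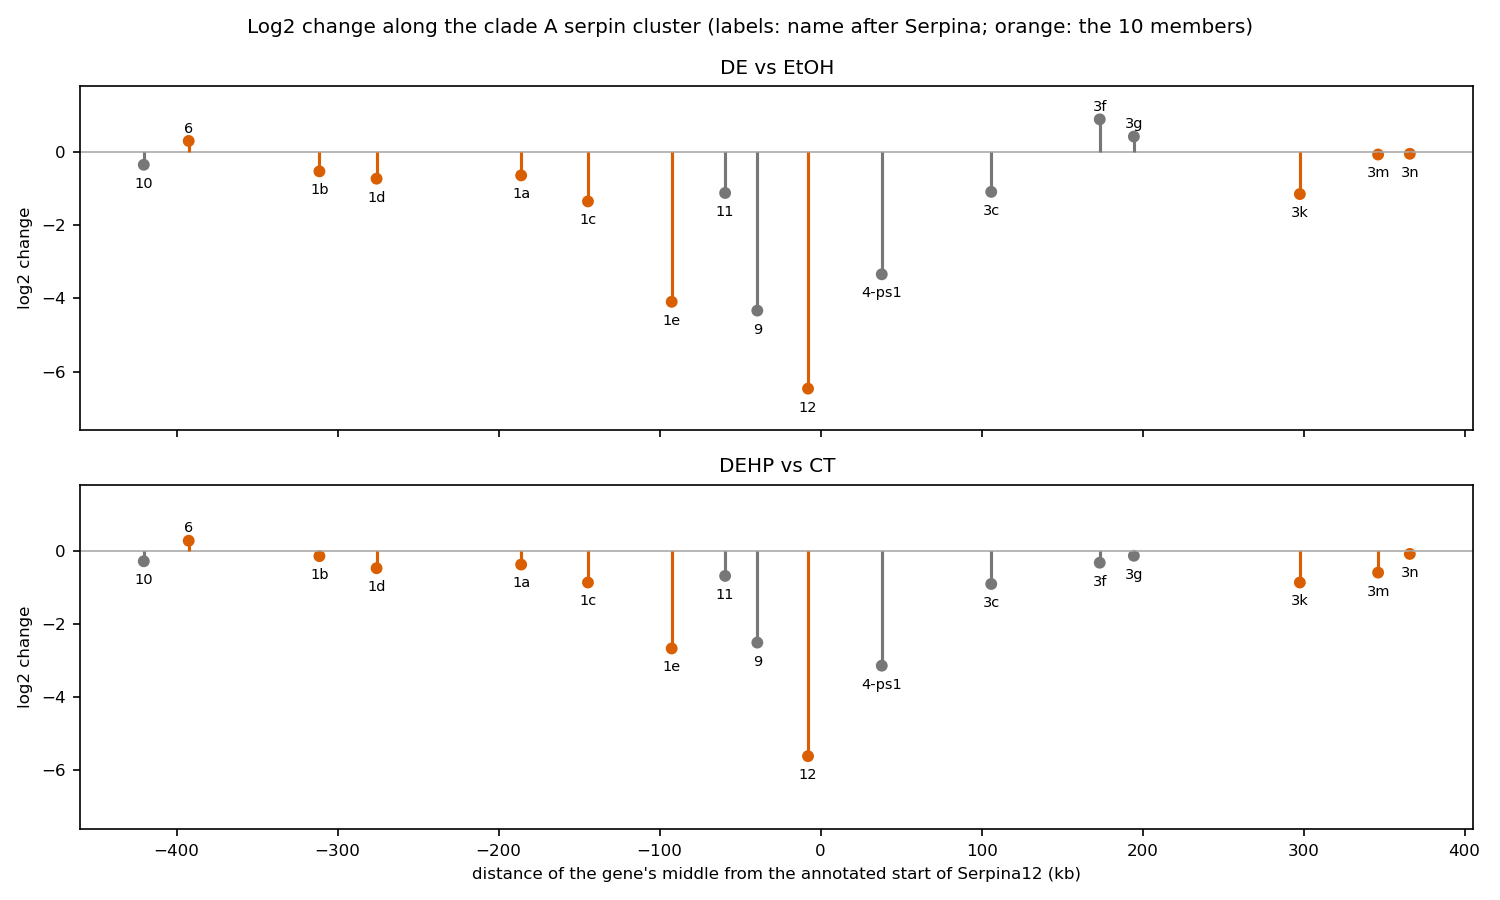
Log2 change (y axis) of the clade A serpins tested on chromosome 12 and of Serpina4-ps1, in DE against EtOH and in DEHP against CT, by the distance in kb from the start of Serpina12 (x axis). Orange marks the 10 members and grey the others. Serpina9, Serpina12 and Serpina4-ps1 are a description without a test, and nothing is read from their positions. Serpina11 changed by -1.12 and -0.69, and Serpina1a at -186.0 kb changed direction after quantile normalisation.

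Of 15 other clade A serpins looked up, 14 were listed in a library and 7, without Serpina4-ps1, passed the filter on low values. In DEHP against CT 3 of these 7 were lower and none higher, beside 11.6% and 14.4% of all tested genes, and in DE against EtOH 3 were lower and 1 higher, beside 12.7% and 15.1%. Serpina9 is among the 3 in both, but it passed the filter only through EtOH and CT libraries and is a description. The lower genes apart from Serpina9 were Serpina11 and Serpina3c in both contrasts. In EtOH against CT 1 was higher and 1 lower, beside 14.2% and 14.5%, namely Serpina11 (0.43 ± 0.14, edgeR adjusted p = 0.0208) and Serpina3f (-1.22 ± 0.43, edgeR adjusted p = 0.0336). Serpina3f was near the floor, at 0.38 to 0.92 FPKM in EtOH and 0.78 to 2.87 in CT, with overlapping ranges. No EtOH library reached the 1 FPKM of the filter for Serpina3f.

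The genes whose pattern over the 24 libraries was most like that of Serpina12 were Sdr9c7 (Pearson r = 0.971 of log2(FPKM + 1)), Cfi (0.95), Cyp2d40 (0.943), Cbs (0.942), Irf5 (0.936) and C1s1 (0.934). Sdr9c7, a short-chain dehydrogenase, had 2.83 to 7.42 FPKM in DE and 3.09 to 8.0 in DEHP, against 22.2 to 33.9 in EtOH and 25.3 to 30.5 in CT. Cfi, complement factor I, had 229 to 256 FPKM in DE and 217 to 251 in DEHP, against 307 to 378 in EtOH and 307 to 362 in CT. These likenesses follow the groups. For deviations from the group means, r was 0.36 for Sdr9c7, 0.24 for Cfi, 0.364 for Cyp2d40, 0.186 for Cbs, -0.0472 for Irf5 and 0.25 for C1s1.

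Of 11 other abundant secreted proteins of hepatocytes, 10 were lower and none higher in DE against EtOH, with a median log2 change of -0.54, beside 12.7% and 15.1% of all tested genes. In DEHP against CT 7 were lower and none higher, with a median of -0.37, beside 11.6% and 14.4%. The exception in DE against EtOH was Apoa2, an apolipoprotein of high density lipoprotein picked after its values were seen, which had a mean of 19740 FPKM in DE against 16870 in EtOH and was not called (0.15 ± 0.10). Ahsg, which encodes fetuin-A, changed by -0.82 ± 0.09 in DE against EtOH (edgeR adjusted p = 9.69e-08) and by -0.57 ± 0.09 in DEHP against CT (edgeR adjusted p = 2.25e-05). Albumin took 4.32% ± 0.284 of all counts in DE and 4.48% ± 0.688 in DEHP, against 6.02% ± 0.581 in EtOH and 6.86% ± 0.783 in CT, and the 10 serpins took 2.16% ± 0.455 and 2.35% ± 0.434, against 4.87% ± 0.428 and 4.28% ± 0.258 (SD, n = 6 each). The part of these differences in the serpin result was not tested.

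Among 18 factors that regulate serpin genes or hepatocyte identity, 6 were lower and none higher in DEHP against CT, beside 11.6% and 14.4% of all tested genes, and 5 were lower and 1 higher in DE against EtOH, beside 12.7% and 15.1%. Ghr, the growth hormone receptor, changed by -0.43 ± 0.07 in DEHP against CT (edgeR adjusted p = 3.85e-05) and by -0.50 ± 0.07 in DE against EtOH (edgeR adjusted p = 2.98e-06). Cebpa, which drives hepatocyte gene expression, was lower in DE than in EtOH (-0.95 ± 0.10, edgeR adjusted p = 1.17e-07) and higher in EtOH than in CT (1.02 ± 0.10, edgeR adjusted p = 1.28e-07). In EtOH against CT 2 of the 18 were higher and 7 lower, beside 14.2% and 14.5% of all tested genes.

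Serpins fold and are checked in the endoplasmic reticulum, where misfolded alpha-1 antitrypsin is a textbook substrate for degradation. Of 20 genes of this machinery, 1 was higher and 3 were lower in DEHP against CT, beside 14.4% and 11.6% of all tested genes. In DE against EtOH 7 were higher and 1 lower, beside 15.1% and 12.7%, and in EtOH against CT 1 was higher and 6 lower, beside 14.2% and 14.5%. Hspa5, the chaperone BiP, was higher in DE than in EtOH (1.18 ± 0.20, edgeR adjusted p = 6.82e-05) and lower in EtOH than in CT (-0.83 ± 0.20, edgeR adjusted p = 0.00362). It had 617, 624 and 465 FPKM in CT 1 to CT 3 and 287, 344 and 322 in CT 4 to CT 6, against 174 to 300 in EtOH. The part of this difference between CT libraries in the Hspa5 changes was not tested. For 6 of the 20 the interaction was called and positive, beside 3.32% of all tested genes, including Hspa5 (1.40 ± 0.28, edgeR adjusted p = 0.00411) and Herpud1, a component of the degradation complex (0.92 ± 0.23, edgeR adjusted p = 0.0176). None of the 9 serpin members had a called interaction in the same fit.

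Of 14 acute phase proteins, 4 were lower and none higher in DEHP against CT, beside 11.6% and 14.4% of all tested genes. In DE against EtOH 2 were lower and none higher, beside 12.7% and 15.1%, and in EtOH against CT 5 were lower and none higher, beside 14.5% and 14.2%. The fibrinogen chains Fgb (-0.50 ± 0.15, edgeR adjusted p = 0.0129), Fgg (-0.47 ± 0.14, edgeR adjusted p = 0.0161) and Fga (-0.49 ± 0.15, edgeR adjusted p = 0.0178) were among those lower in DEHP than in CT. Fga had 3180, 2441 and 1982 FPKM in CT 1 to CT 3. In CT 4 to CT 6 it had 1610 to 1697, within the 1268 to 1842 of the DEHP libraries. Saa1 had 2204, 2870 and 415 FPKM in CT 1 to CT 3, against 36.9 to 59.6 in CT 4 to CT 6. The part of this difference between CT libraries was not tested. Of 6 proteases that clade A serpins inhibit, only Proc, the anticoagulant protein C, and Prtn3, proteinase 3 of neutrophils, passed the filter. Proc changed by -0.51 ± 0.09 in DE against EtOH (edgeR adjusted p = 7.75e-05) and by -0.24 ± 0.09 in DEHP against CT (edgeR adjusted p = 0.0412), and Prtn3 was not called in either.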

How the data were processed

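RNA of 24 mouse liver libraries was analysed from 1 table per library. Each table holds expected counts, deposited as reads estimated for each gene and not normalised, and deposited FPKM values, scaled to transcript length and assigned reads, per the file headers. A gene without a row was taken as 0. Whole numbers made up 94.5% to 95.3% of expected counts. Cuffdiff and the builds mm10 and GRCm38 are named, with no role, per the submitters' processing notes. The aligner was not given in the sources used here, nor the counting program, its handling of strand or how it divided shared reads.

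Rounded expected counts of genes that reached 1 FPKM in at least 6 libraries entered edgeR 4.0.16 under R 4.3.3. One fit held the 4 groups, with TMM factors, the quasi-likelihood F test and 20 residual degrees of freedom. P-values were Benjamini-Hochberg adjusted over all 10697 such genes. The standard error is the unshrunken change over the square root of F. The interaction is the change from DEHP to DE minus that from CT to EtOH. The test was tried on simulated data first. Alternatives were DESeq2 1.42.0, limma 3.58.1 on log2 FPKM or TPM, other scalings and filters, a replicate block, and leaving out each library. Serpina12 and the summed Serpina1 copies have no reported p-value.

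The members, gene lists and comparisons were chosen with earlier results of these data known. The text names all 10 members, the clade A serpins tested, up to 3 genes of each other list with the smallest adjusted p (1 such gene is not reported here), and the 6 genes most correlated with Serpina12. Serpina4-ps1, Cyp4a14, Ehhadh, Apoa2, Cyp2e1, Saa1 and the motif letters were chosen after values or sequences were seen. Coordinates and promoters are RefSeq on GRCm38.p6, and transcripts are GENCODE on GRCm38.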

Additional observations from a re-analysis of the deposited data

Results flagged for a closer look

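Each of the 10 members was screened in each of the 4 groups for a single library far from the other 5, which makes 40 screens. Chance alone would mark about 1 in 20. There were 7 such values. In DE 4, Serpina12 was at 0.77 FPKM against 0.08 in the nearest DE library, Serpina1e at 2158.4 FPKM against 340.43, and Serpina3k at 5831.85 FPKM against 3534.83. In DEHP 5, Serpina12 was at 0.93 FPKM against 0.16 in the nearest DEHP library.

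The other 3 were in CT libraries. In CT 1, the library with skeletal muscle transcripts, Serpina1c was low at 6315.94 FPKM against 7441.03 in the nearest CT library, and Serpina1d was low at 2278.28 FPKM against 2625.73. The part of the muscle transcripts in these values was not tested. In CT 2, Serpina3n was high at 383.17 FPKM against 217.59 in the nearest CT library.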

How the results depend on the processing

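In DEHP against CT, in DE against CT and in DE against EtOH 6 members were called, counted here in either direction. This count stayed within 1.5 times in each of 13 other settings and 24 refits without 1 library. The refits gave 6 to 6, 6 to 7 and 5 to 7. Where Serpina6 was called higher in DE against EtOH, the count includes it. After quantile normalisation the count was 5 in each, and in DE against EtOH those 5 include Serpina1a called higher. In EtOH against CT the count of 2 became 1 with library size only, limma on log2(FPKM + 1), log2(FPKM + 0.1), log2(TPM + 1) or quantile-normalised values, a filter at 5 FPKM, the replicate block, or without the muscle and pancreas libraries, 0 with no filter, and 0 to 3 without 1 library. The interaction count of 0 became 1 with library size only and with DESeq2, and 0 to 2 without 1 library. The summed Serpina1 copies in EtOH against CT moved from 0.25 to 0.09 with TPM and 0.06 after quantile normalisation. Serpina1a reversed after quantile normalisation, to 0.05 in DEHP against CT, 0.03 in DE against CT and 0.24 in DE against EtOH (limma adjusted p = 0.727, 0.851 and 0.0427), and the cause was not tested. Of 2209 refits of single members, 2139 kept the call or, for Serpina12 estimates without a call, moved by less than the SD between libraries. In 49 refits the direction differed with no call in either fit.

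Replicate numbers do not pair the libraries by label: deviations of same-numbered libraries correlated at -0.215 to 0.211 over 36 pairs, 6 of them over 0.1. With the number as a replicate block, the member counts were 6, 6, 6, 0 and 0 in DEHP against CT, DE against CT, DE against EtOH, DE against DEHP and the interaction. Depth limits Serpina12 with DEHP, where a library held 0 to 23 counts, and on log2(FPKM + 1) its change in DEHP against CT was -3.34.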

Other observations

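Of 12 tested serpins outside clade A, 1 was higher and 2 were lower in DEHP against CT, beside 14.4% and 11.6% of all tested genes. The counts were 3 higher and 5 lower in DE against EtOH, beside 15.1% and 12.7%, and in EtOH against CT 2 were higher and 1 lower, beside 14.2% and 14.5%. Serpinb1a, an intracellular inhibitor of neutrophil proteases, was higher in DEHP than in CT (1.81 ± 0.31, edgeR adjusted p = 0.000129). Serpine2, protease nexin-1, was lower (-1.71 ± 0.46, edgeR adjusted p = 0.00721), and so was Serpind1, heparin cofactor II (-0.27 ± 0.08, edgeR adjusted p = 0.0167). In DE against EtOH, Serpinf1, which encodes PEDF, changed by -0.53 ± 0.09 (edgeR adjusted p = 8.26e-05), and Serping1, the C1 inhibitor, by -0.39 ± 0.08 (edgeR adjusted p = 0.000576).

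Of 8 genes of glucocorticoid handling, the hormone class that transcortin carries, 4 were lower and none higher in DEHP against CT, beside 11.6% and 14.4% of all tested genes. In DE against EtOH 3 were lower and 1 higher, beside 12.7% and 15.1%, and in EtOH against CT 3 were lower and 1 higher, beside 14.5% and 14.2%. Hsd11b1, which regenerates active glucocorticoid, changed by -1.17 ± 0.11 in DEHP against CT (edgeR adjusted p = 1e-08) and by -1.01 ± 0.11 in DE against EtOH (edgeR adjusted p = 8.63e-08). Per1 changed by -1.66 ± 0.31 (edgeR adjusted p = 0.000281) and -1.58 ± 0.33 (edgeR adjusted p = 0.000713) in the same contrasts, and Tsc22d3 by -1.18 ± 0.23 in DEHP against CT (edgeR adjusted p = 0.000433). In EtOH against CT, Tsc22d3 changed by -2.08 ± 0.24 (edgeR adjusted p = 9.95e-07) and Tat by -1.01 ± 0.13 (edgeR adjusted p = 7.49e-06).

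Of the remaining cell type markers, 5 neutrophil genes summed to 67.4 FPKM and 6 Kupffer cell genes to 221 FPKM in DEHP 1, against at most 9.01 and 174 FPKM in any other library. Markers of cholangiocytes, 4 genes, summed to 2.86 to 12.0 FPKM.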
